A study of Mus musculus with 10 samples.

Results

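The enzymes and regulators that carry glucose carbon through glycolysis and the citric acid cycle were compared between the cortex of Chd8 knock-in (KI) mice and that of wild-type (WT) mice. The set holds 44 genes, listed by gene name at a time when earlier results of these data were known. All 44 were found among the 13661 genes of the authors' deposited table. They cover 10 genes of upper glycolysis, 6 of lower glycolysis, 2 lactate dehydrogenase subunits, 10 genes of pyruvate entry into mitochondria, 12 of the citric acid cycle and 4 of the malate-aspartate shuttle. The comparison is between 5 libraries labelled Chd8 KI and 5 labelled Wild-type, all from poly(A) RNA of the cortex of male mice aged 8 weeks. The series title describes the KI allele as a duplication of the autism-related gene Chd8, which encodes a chromatin remodeller; where the added copy lies, its promoter, its zygosity and the strain are not stated in the labels. The question is whether an added dose of Chd8 is accompanied by a change in the transcripts of central carbon metabolism in the adult cortex.

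Glycolysis splits glucose in the cytosol into pyruvate, which is either reduced to lactate or carried into mitochondria, where the pyruvate dehydrogenase complex turns it into acetyl-CoA for the citric acid cycle. The cycle feeds electrons to the respiratory chain, and the malate-aspartate shuttle brings the electrons of cytosolic NADH into mitochondria. In the brain these steps are shared between cell types: astrocytes are known for glycolysis, lactate export and pyruvate carboxylation, and neurons for heavy use of oxidative metabolism. The transcripts of whole cortex mix all of these cells, so fewer cells of a type and less RNA per cell cannot be told apart.

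No member passed the test for a difference between KI and WT cortex. Of the 44 genes, 0 had an adjusted p under 0.05 by the authors' DESeq2 Wald test, and 0 had an unadjusted p under 0.05. Over all 13660 genes with a p-value, 10 were past the adjusted threshold, which is 0.0732% (0.00732% higher and 0.0659% lower in KI), and 440, or 3.22%, had an unadjusted p under 0.05. A count of 0 among 44 genes is close to what the first of these shares gives for any list of this size. Pdk2 had the smallest unadjusted p of the members, 0.0694, and the authors' deposited table gives every member an adjusted p of 0.9999. The log2 fold changes, here KI over WT with 0 meaning equal levels, ran from -0.12 to 0.049 with a median of -0.016, against a median of 0.0025 over all genes. The sign was negative for 29 members and positive for 15, and 48.4% of all genes tested were negative. With the trend of log2 fold change on transcript length removed, 23 were negative and 21 positive, so the balance of signs depended on this setting.

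These are abundant transcripts, and their differences were measured with small errors. Members had a median mean normalised count (the authors' depth-scaled count, averaged over all libraries) of 4143, against 549 over all genes, and 42 of 44 lay above that median of all genes. Standard errors of the members' log2 fold changes had a median of 0.052, against 0.089 over all genes. The 95% normal interval around the deposited estimate included 0 for all 44 members. It lay within ±0.25 on the log2 scale, a ratio between 0.841 and 1.19, for 42 of 44 members (95.5%) and 54.9% of all genes. The exceptions were Pdk2, whose lower bound was -0.254, and Hk2, whose interval ran from -0.29 to 0.37. All 44 intervals lay within ±0.5, as did 88.5% of those of all genes. For 7 members, Gpi1, Pfkm, Eno1, Eno2, Pkm, Pdha1 and Cs, the interval lay within ±0.1, a band that held 2.25% of all genes. Of these, Gpi1, Eno1, Pkm and Pdha1 share sequence with other genes to an extent described below. Their intervals may therefore not be those of the named gene alone. The smallest Wald score, in size, among the 10 genes that passed was 4.15, and at that score the median member would have needed a log2 fold change of 0.22 in size, or a ratio of 1.16 or 0.861.

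**Figure D1:**
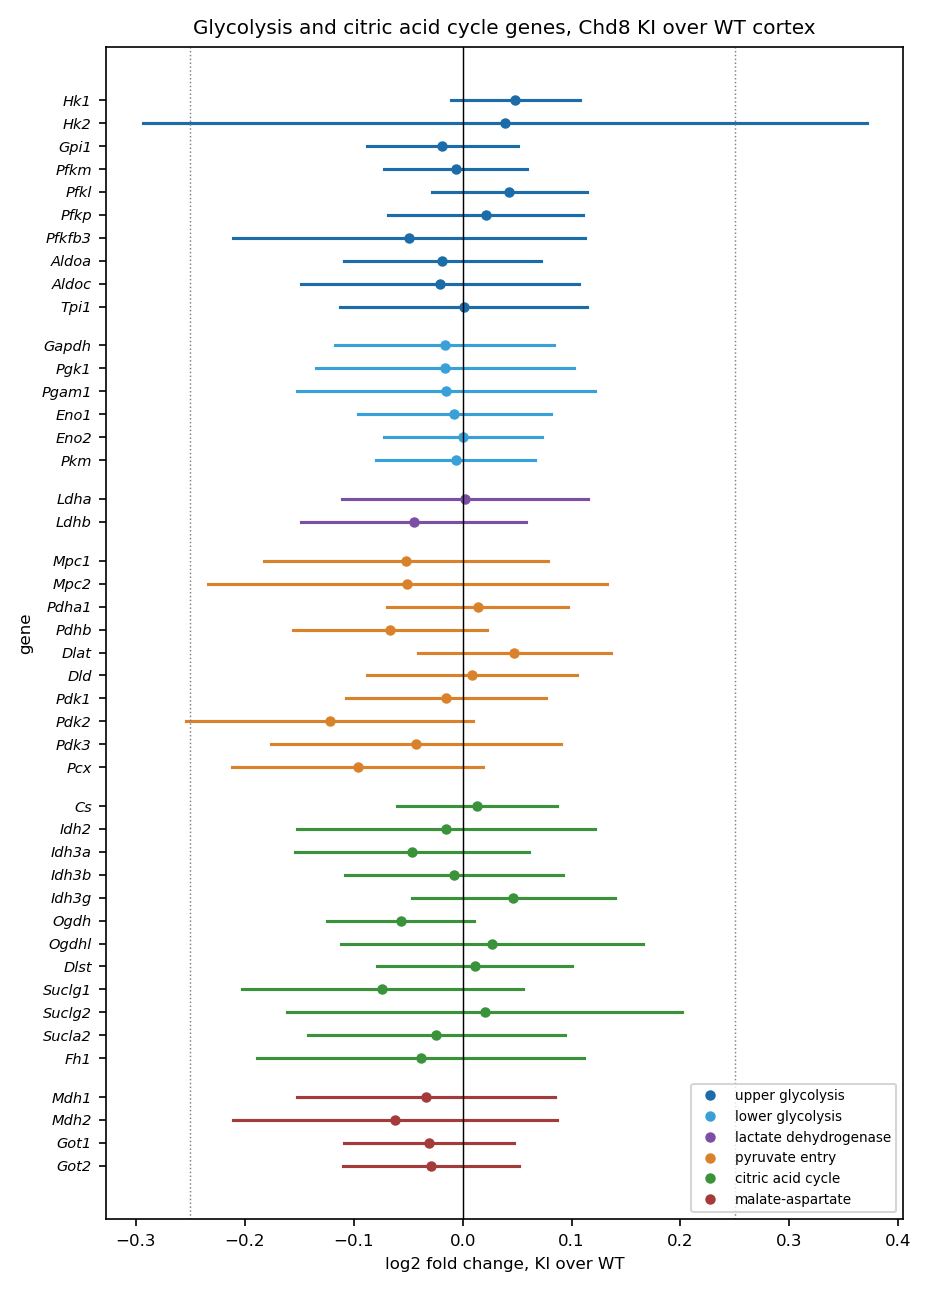
Log2 fold change of each member, KI over WT (x axis), with genes down the page by role (colour). Points are deposited values, lines are 95% intervals from the deposited standard error, and dotted lines mark ±0.25; all 44 intervals cross 0, and those of Hk2 and Pdk2 pass a dotted line.

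**Figure D2:**
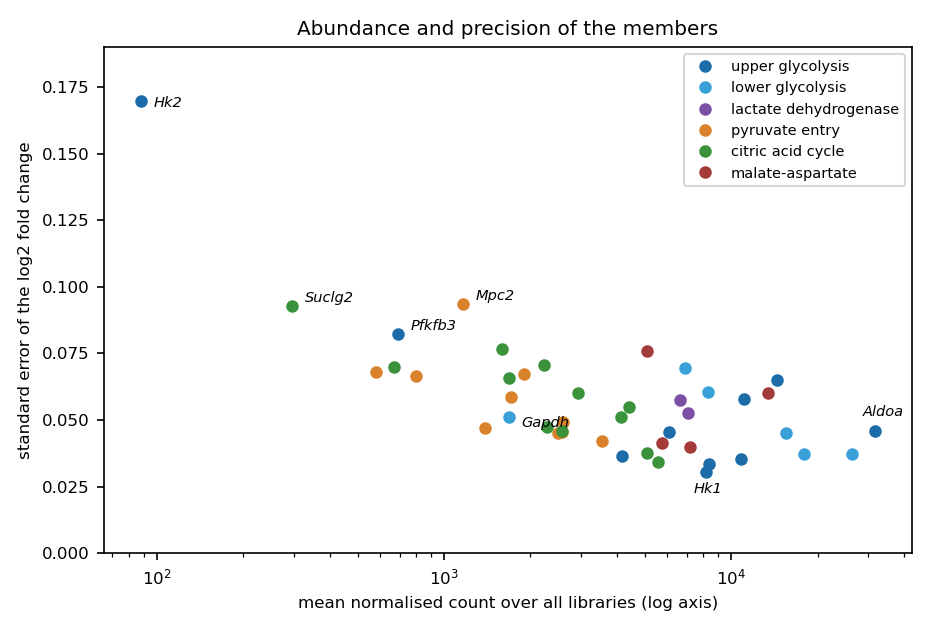
Mean normalised count over all libraries (x axis, log scale) and standard error of the log2 fold change (y axis) for the 44 members, coloured by role. Hk2, with a mean normalised count of 87.8, stands apart with the largest standard error, 0.17.

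Chd8 mRNA, the targeted transcript, was 1.40-fold higher in KI cortex (95% interval 1.22 to 1.61), with a log2 fold change of 0.49, a standard error of 0.10 and an adjusted p of 0.0044 by the authors' DESeq2 Wald test in the authors' deposited table. No header says which genotype is on top of the ratio. It was taken to be KI, the reading under which Chd8 is the higher in KI, and every sign given here rests on this, so the sign of Chd8 does not check the labels. The cortical excitatory neuron genes Slc17a7 and Neurod6 had mean normalised counts of 28078 and 1513 in the authors' deposited table. No values of single libraries were analysed here, so each value is that of the whole comparison and the spread among animals enters only through the deposited standard errors.

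In upper glycolysis, from glucose to the triose phosphates, the 10 members had a median log2 fold change of -0.0027, with 5 of either sign and none past the threshold. Hk1, the main brain hexokinase, which traps glucose in the cell as its phosphate, had the smallest p of any member on the positive side. It stood at 0.049 (standard error 0.030, unadjusted p = 0.111, adjusted p = 0.9999) in the authors' deposited table, a ratio of 1.03 with an interval from 0.992 to 1.08. Hk2, the inducible hexokinase, stood at 0.039 with a standard error of 0.17 in the authors' deposited table. Gpi1, which converts glucose phosphate to fructose phosphate, stood at -0.019 (0.035) in the same deposited table of the authors.

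Phosphofructokinase, the committed step of glycolysis, is built from muscle (Pfkm), liver (Pfkl) and platelet (Pfkp) type subunits. The log2 fold changes in the authors' deposited table were -0.0063 (standard error 0.034) for Pfkm, 0.043 (0.036) for Pfkl and 0.021 (0.046) for Pfkp. Pfkl had the next smallest p on the positive side, with an unadjusted p of 0.238, an adjusted p of 0.9999 and a ratio of 1.03 (interval 0.981 to 1.08) from the authors' deposited table. Pfkfb3, which makes the allosteric activator of phosphofructokinase, stood at -0.049 (0.082) in the authors' deposited table. Aldolase, which splits the hexose into trioses, is encoded by Aldoa, the widely expressed form, and by Aldoc, the brain form that is abundant in astrocytes and Purkinje cells. Aldoa was at -0.019 (0.046) and Aldoc at -0.020 (0.065) in the authors' deposited table, so both forms had nearly the same estimate. Tpi1, triose phosphate isomerase, stood at 0.00091 (0.058) in the authors' deposited table.

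Lower glycolysis, which yields ATP and NADH, gave the estimates closest together of any role group. All 6 members lay between -0.016 and 0.00040 with a median of -0.011, while their standard errors ran from 0.037 to 0.070 in the authors' deposited table. Gapdh, the NADH-forming dehydrogenase, stood at -0.016 (0.051), Pgk1, the first ATP-forming kinase, at -0.016 (0.060), and Pgam1, phosphoglycerate mutase, at -0.015 (0.070) in the authors' deposited table. The enolases Eno1, the ubiquitous form, and Eno2, the neuronal form, stood at -0.0076 (0.045) and 0.00040 (0.037) there, again in the authors' deposited table. Pkm, the pyruvate kinase gene whose alternative exons give the M1 and M2 enzymes, stood at -0.0062 (0.037) in the authors' deposited table; a gene-level count does not separate these isoforms. The group's genes share the same 10 libraries and their estimates may be correlated, so their closeness is a description. Of the lactate dehydrogenase subunits, Ldha, which favours the reduction of pyruvate to lactate, stood at 0.0020 (0.058), and Ldhb, which favours the reverse, at -0.045 (0.053) in the authors' deposited table.

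The lowest 2 values of the whole set lay among the genes that decide the fate of pyruvate in mitochondria. These 10 genes had a median of -0.047, with 7 negative, 3 positive and none past the threshold. Pdk2, a kinase that inactivates pyruvate dehydrogenase by phosphorylation, had the lowest estimate, -0.12 on the log2 scale (standard error 0.067, unadjusted p = 0.0694, adjusted p = 0.9999) in the authors' deposited table. Its ratio was 0.919, with an interval from 0.839 to 1.01. The other kinases of the set, Pdk1 and Pdk3, stood at -0.016 (0.047) and -0.043 (0.068) in the authors' deposited table. Pdk4, a kinase of the same family outside the set, stood at -0.064 (0.16) there. Pcx, pyruvate carboxylase, which replenishes oxaloacetate and in brain is mainly astrocytic, stood at -0.096 (standard error 0.059, unadjusted p = 0.102, adjusted p = 0.9999) in the authors' deposited table, a ratio of 0.935 with an interval from 0.864 to 1.01. Lrfn4 overlaps Pcx in the RefSeq annotation and stood at -0.033 (0.071) in the authors' deposited table. Whether counting was stranded is unknown here, so reads in such overlaps cannot be told apart, and 17 of 44 members overlap another annotated gene.

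Subunits of the pyruvate dehydrogenase complex lay on both sides of 0. Pdhb, the beta subunit of its first enzyme, stood at -0.067 (standard error 0.046, unadjusted p = 0.144, adjusted p = 0.9999) in the authors' deposited table, and its ratio was 0.955 with an interval from 0.897 to 1.02. Dlat, the acetyltransferase core, stood at 0.048 (standard error 0.045, unadjusted p = 0.290, adjusted p = 0.9999) in the authors' deposited table, with a ratio of 1.03 and an interval from 0.972 to 1.10. Pdha1, the X-linked alpha subunit, stood at 0.014 (0.042) and Dld, the dehydrogenase shared with the oxoglutarate complex, at 0.0086 (0.049) in the authors' deposited table. Mpc1 and Mpc2, which form the carrier that brings pyruvate into mitochondria, stood at -0.052 (0.067) and -0.051 (0.093) in the authors' deposited table. Differences between subunits could not be tested, since the covariance of their estimates is not in the table.

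The 12 citric acid cycle genes had a median of -0.012, with 7 negative and 5 positive and none past the threshold. Cs, citrate synthase, which opens the cycle, was at 0.013 (0.038) in the authors' deposited table. The NAD-dependent isocitrate dehydrogenase is built from the products of Idh3a, Idh3b and Idh3g, which stood at -0.047 (0.055), -0.0080 (0.051) and 0.047 (0.047) in the authors' deposited table. Idh3g had an unadjusted p of 0.327, an adjusted p of 0.9999 and a ratio of 1.03 (interval 0.968 to 1.10) from the authors' deposited table. Idh2, the mitochondrial NADP-dependent form, stood at -0.015 (0.070) in the authors' deposited table. Ogdh, the first enzyme of the oxoglutarate dehydrogenase complex, stood at -0.057 (standard error 0.034, unadjusted p = 0.0968, adjusted p = 0.9999) in the authors' deposited table, a ratio of 0.961 with an interval from 0.917 to 1.01. Its brain-enriched paralog Ogdhl stood at 0.027 (0.071) and Dlst, the succinyltransferase core of the complex, at 0.011 (0.046) in the authors' deposited table. Succinate-CoA ligase pairs the common alpha subunit Suclg1, at -0.074 (0.066), with Sucla2, the ATP-forming beta subunit, at -0.024 (0.060), or Suclg2, the GTP-forming one, at 0.020 (0.093), all in the authors' deposited table. Fh1, fumarase, stood at -0.039 (0.077) in the authors' deposited table.

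All 4 malate-aspartate shuttle enzymes had small negative estimates, with a median of -0.032 and none past the threshold. The cytosolic malate dehydrogenase Mdh1 stood at -0.034 (0.060) and its mitochondrial counterpart Mdh2, which also closes the citric acid cycle, at -0.062 (0.076) in the authors' deposited table. The aspartate aminotransferases Got1, cytosolic, and Got2, mitochondrial, stood at -0.031 (0.040) and -0.029 (0.041) in the authors' deposited table. Each estimate was smaller than its standard error.

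The forms of an enzyme were set side by side by mean normalised count per kilobase of exon. This is a level over all 10 libraries of both genotypes. Some forms share sequence with other genes, which makes their levels and order uncertain. Of 50-base windows of the coding transcript, the part also found in other genes was 72.2% for Eno1, 27.0% for Ldhb and 21.8% for Suclg2. It was 17.1% for Pfkp, 16.6% for Ldha and 13.5% for Aldoa. Hk1 made up 98.5% of the summed Hk1 and Hk2 level. Hk2 stood at 14.7 per kilobase. Outside the set, the hexokinase-like gene Hkdc1 stood at 61.2 and Hk3 at 9.57, and neither is in this share. Pfkm made up 69.9% of the phosphofructokinase level, Pfkl 17.4% and Pfkp 12.7%; per kilobase of the coding transcript these shares were 52.9%, 20.3% and 26.8%, so the order of the last pair depended on the length used. Aldoa, with 10906 normalised counts per kilobase, stood at the top of the set and above Aldoc at 4410. Ldhb, at 4498 per kilobase, stood above Ldha at 1998. Pdk2 made up 59.8% of the level of the 3 kinases of the set, Pdk3 22.4% and Pdk1 17.8%. Among these 3, the kinase with the lowest log2 fold change was also the most abundant one. Pdk4, outside the set, stood at 59.4 per kilobase and is not in these shares. Ogdh made up 65.4% of the level it shares with Ogdhl, and among succinate-CoA ligase subunits Sucla2 held 63.1%, Suclg1 31.4% and Suclg2 5.49%. Suclg1 pairs with either of the others, so only Sucla2, at 734 per kilobase, and Suclg2, at 63.9, are alternative forms. The order of the enolases depended on the length too: Eno2 held 56.8% of the summed level per kilobase of all annotated exons, and 45.5% per kilobase of the coding transcript. No spread over libraries can be attached to these shares.

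Gapdh, commonly used as a reference gene, was listed far below its neighbours in the pathway. Its mean normalised count was 1686 in the authors' deposited table, 408 per kilobase of exon and 1325 per kilobase of its coding transcript. Per kilobase of coding transcript Tpi1 stood at 6884, Pgk1 at 4551 and Pgam1 at 3895, although these enzymes act beside it in one chain. Gapdh is known for many processed pseudogenes in the mouse genome. Of the 50-base windows of its coding transcript, 90.4% also occurred in transcripts of other genes in the GENCODE M21 annotation, 222 genes in all, of which 213 are annotated as pseudogenes. With 150-base windows the share was 81.5%. The stretch below, part of exon 4 of 7 of the Gapdh transcript, is shown because its 60 bases recur unchanged in 69 other genes, 66 of them pseudogenes; capitals mark the shared bases, here all of them, and the build is GRCm38.
Gapdh, chr6:125162896-125162955, minus strand: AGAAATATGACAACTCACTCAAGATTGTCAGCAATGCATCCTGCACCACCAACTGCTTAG
A read from such a stretch has no single origin, and no source used here gives how the authors treated such reads. Its part in the low count was not tested. The same share was 72.2% for Eno1, 68.0% for Pgk1, 47.2% for Got2 and 41.5% for Pgam1, whose levels per kilobase of coding transcript were 7651, 4551, 2270 and 3895, and 34.4% for Pkm. In all, 15 of 44 members shared over 10% of their windows with other genes and 25 shared none. Matches were counted on either strand and in any other annotated gene, also one that overlaps the member. Not all of them are pseudogenes: Gpi1 shared windows with 122 other genes, 3 of them pseudogenes, and Pfkp with 1 gene that is not a pseudogene. Levels of those 15 genes are therefore uncertain. How far their log2 fold changes and intervals are those of the named gene alone was not tested. Among the other 29 members, 18 log2 fold changes were negative and 11 positive.

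**Figure D3:**
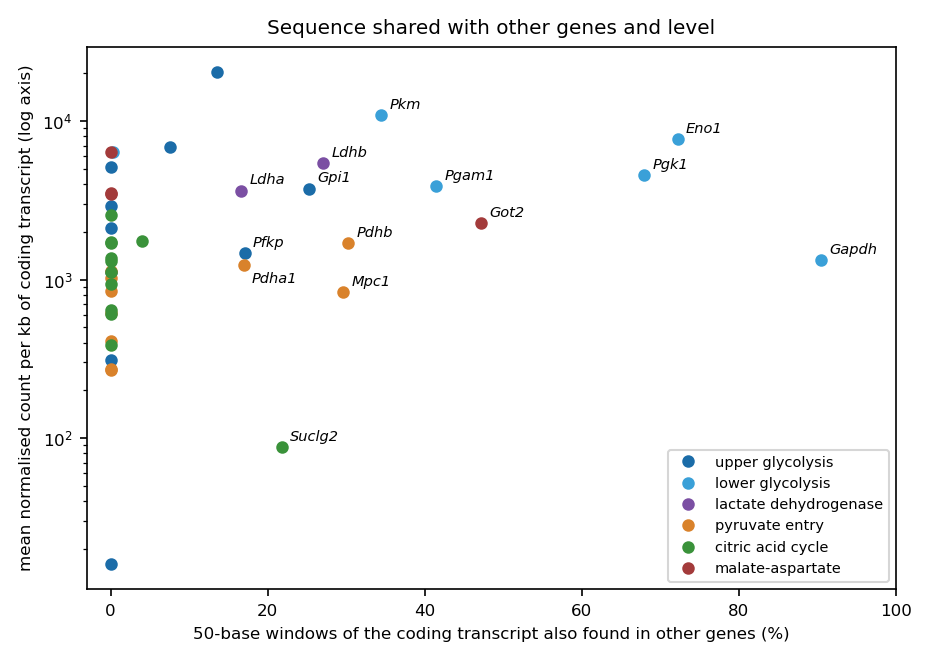
Share of 50-base windows of each member's coding transcript found in other GENCODE M21 genes (x axis, percent) and mean normalised count per kilobase of that transcript (y axis, log scale), coloured by role. Gapdh lies at the far right, at 90.4% and 1325, below Eno1 at 72.2% and 7651.

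The promoters of these genes were searched for the core of the hypoxia response element, bound by hypoxia-inducible factors, which are known to drive glycolytic genes when oxygen is low. The cores searched were ACGTG and GCGTG on both strands, in 64 promoters of 43 members (RefSeq, GRCm38.p6; 250 bases before to 50 after each annotated start). At least one core was found in 71.9% of the members' promoters, against 61.1% of 13792 promoters of the genes in the deposited table and 43.8% of all 32851 promoters. ACGTG was in 42.2% of the members' promoters and 24.9% of those of the genes in the deposited table. GCGTG was in 51.6% and 49.6%, nearly the same share. By gene, 15 of 18 glycolytic and lactate dehydrogenase genes and 18 of the other 25 had a core of either kind. No share by gene over all genes is given here, and a gene with several starts has more chances of a core. Shares by promoter count overlapping starts of the same gene separately, as for Ogdh and Eno1. Member promoters had a median GC content of 61.0%, against 52.7% over all promoters, and both cores hold a CG pair. The GC content of the promoters of the genes in the deposited table is not given here, and its part was not tested. The E-box CACGTG, in which ACGTG occurs on both strands, was in 14.1% of member promoters, 9.72% of those of the genes in the deposited table and 7.15% of all. The TATA box TATAAA, searched on both strands, was in 3.13%, 7.08% and 13.6% of the same 3 sets. Members with a hypoxia core had a median log2 fold change of -0.019 and those without one 0.0048, a description only. The promoters below are those of Ldha, which held the most cores, Pgk1, Pdk2, the member with the lowest log2 fold change, and Hk1, the one with the highest; the start shown is 1 of 2 for Ldha, Pdk2 and Hk1, chosen as the one with cores or more cores. Capitals mark ACGTG or GCGTG on either strand.
Ldha, chr7:46845554-46845853, plus strand: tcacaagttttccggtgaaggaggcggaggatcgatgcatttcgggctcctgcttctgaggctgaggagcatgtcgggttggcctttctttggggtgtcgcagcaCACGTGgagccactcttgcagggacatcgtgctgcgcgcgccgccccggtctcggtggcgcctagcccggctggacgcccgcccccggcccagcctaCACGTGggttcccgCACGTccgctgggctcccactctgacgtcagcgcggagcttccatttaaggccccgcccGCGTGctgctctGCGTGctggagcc
Pgk1, chrX:106186850-106187149, plus strand: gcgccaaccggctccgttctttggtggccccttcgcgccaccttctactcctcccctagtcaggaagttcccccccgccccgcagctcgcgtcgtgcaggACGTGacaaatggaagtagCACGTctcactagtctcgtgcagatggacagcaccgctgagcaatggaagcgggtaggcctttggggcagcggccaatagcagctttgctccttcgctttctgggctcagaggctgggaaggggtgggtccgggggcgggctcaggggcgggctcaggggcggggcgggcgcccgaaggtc
Pdk2, chr11:95041322-95041621, minus strand: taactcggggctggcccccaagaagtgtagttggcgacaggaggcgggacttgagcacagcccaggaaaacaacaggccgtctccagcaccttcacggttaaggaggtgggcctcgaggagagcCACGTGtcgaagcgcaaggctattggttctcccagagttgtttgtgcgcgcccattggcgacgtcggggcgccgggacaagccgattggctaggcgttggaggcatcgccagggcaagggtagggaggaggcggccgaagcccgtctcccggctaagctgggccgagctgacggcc
Hk1, chr10:62340372-62340671, minus strand: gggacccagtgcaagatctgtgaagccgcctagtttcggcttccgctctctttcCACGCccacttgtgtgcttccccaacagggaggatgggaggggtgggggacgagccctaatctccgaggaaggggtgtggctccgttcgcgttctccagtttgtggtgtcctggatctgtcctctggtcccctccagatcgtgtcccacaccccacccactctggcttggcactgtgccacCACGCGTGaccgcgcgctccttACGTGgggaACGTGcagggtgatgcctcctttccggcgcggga
The Ldha promoter held 7 cores, 5 of them ACGTG, when a CACGTG was counted on each strand, and that of Hk1 held 5. Pgk1 and Pdk2 had 2 each, those of Pdk2 within a single CACGTG. These 4 genes stood at 0.0020, -0.016, -0.12 and 0.049 in log2 fold change in the authors' deposited table. A match is a run of letters and says nothing of binding, and which start is used in the cortex was not tested.

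The wider pathway was described with 9 further lists of metabolic genes, 151 genes in all, and none of their tested members passed the threshold. Glucose and lactate transporters had a median log2 fold change of 0.036 over 8 of 9 genes, 5 positive and 3 negative. In that list the neuronal glucose transporter Slc2a3 stood at 0.066 (0.042), the blood-brain barrier transporter Slc2a1 at 0.11 (0.071) and the lactate transporter Slc16a7 at 0.14 (0.10) in the authors' deposited table. Other glycolytic enzymes and regulators had a median of -0.012 over 15 of 20 genes, 7 positive and 8 negative. Hkdc1, a hexokinase-like gene, had an unadjusted p of 0.0237 and an adjusted p of 0.9999 by the authors' DESeq2 Wald test. Its log2 fold change was 0.26 (0.11) in the authors' deposited table. Over all genes tested, 3.22% had an unadjusted p under 0.05. Glycogen genes had a median of 0.020, 13 positive and 4 negative, and pentose phosphate genes one of -0.037, 2 positive and 6 negative. Other genes of pyruvate dehydrogenase and lipoylation had a median of -0.037, 3 positive and 5 negative. Pdp1 and Pdp2 encode phosphatases that reverse the action of the Pdk kinases. Pdp1 stood at -0.15 (0.071, unadjusted p = 0.0330, adjusted p = 0.9999) and Pdp2 at 0.10 (0.13) in the authors' deposited table, on opposite sides of 0.

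Further into mitochondria, other citric acid cycle and anaplerosis genes had a median of -0.0064 over 19 of 22 genes, 8 positive and 11 negative, and metabolite carriers one of -0.020, 6 positive and 11 negative. Hypoxia pathway genes had a median of 0.015, 12 positive and 8 negative. Arnt2, a neuronal partner of hypoxia-inducible factors, stood at 0.091 (0.037, unadjusted p = 0.0133, adjusted p = 0.9999) and Hif1a at 0.073 (0.055) in the authors' deposited table. On the negative side, Bnip3l of the same list stood at -0.076 (0.077) in the authors' deposited table. Regulators of energy metabolism had a median of 0.011, 16 positive and 12 negative, with Esrra, a nuclear receptor that drives mitochondrial genes, at -0.13 (0.063, unadjusted p = 0.0414) in the authors' deposited table. The nuclear-encoded subunits of the respiratory chain had a median of -0.057, with 68 of 74 negative and none past the threshold. The members' median of -0.016 with 29 of 44 negative lay nearer to 0. Transcript length moved with these signs: the median longest transcript was 2608 bases among members, 998 among respiratory chain subunits and 3527 over all genes. With the trend of log2 fold change on length removed, the medians were -0.0064 for members and -0.027 for the respiratory chain. The difference between these lists was not tested.

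**Figure D4:**
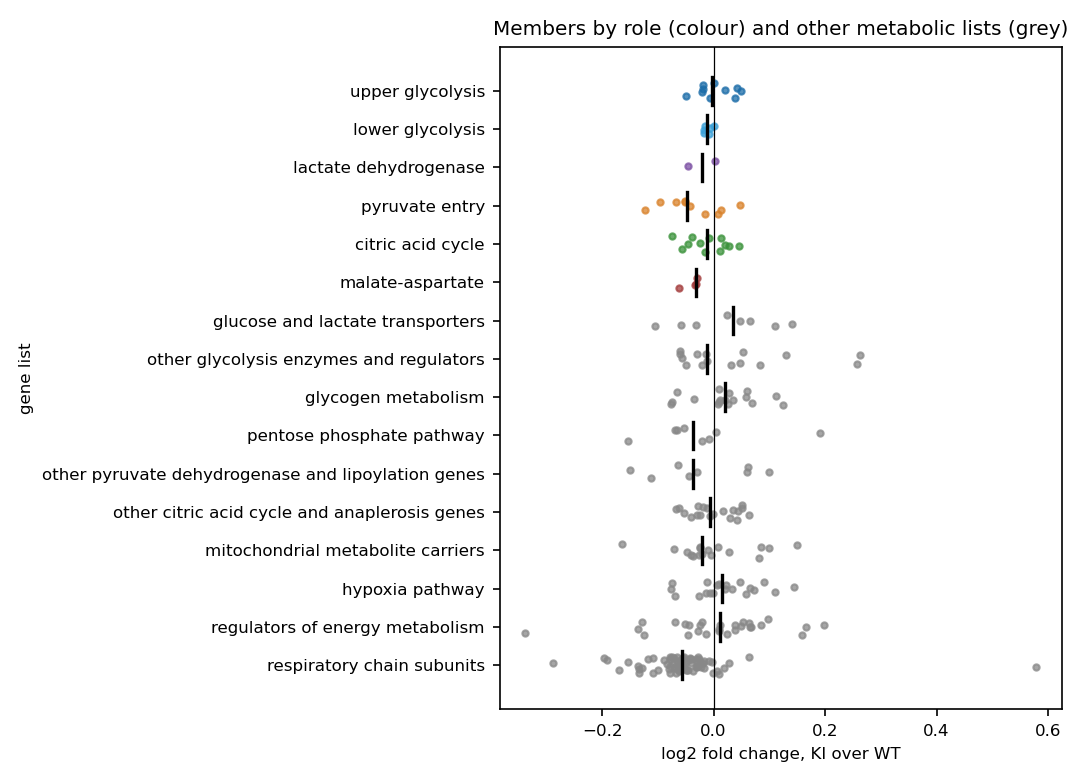
Log2 fold change, KI over WT (x axis), of each gene of the 6 role groups (colour) and of 10 other metabolic lists (grey); black bars are medians. The coloured points lie between -0.12 and 0.049, and the respiratory chain median of -0.057 is the lowest bar.

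Markers of other tissue and cell types are given beside the members, several of which are enriched in one cell type. The marker lists were chosen with earlier results of these data known, so their medians and counts are a description only. Over all genes tested, 48.4% were negative and 0.0732% were past the threshold. Thalamic markers had a median log2 fold change of -0.35 (8 of 10 negative, 2 past the threshold, Tcf7l2 and Prkcd), and meningeal and choroid plexus markers one of -0.24 (16 of 16 negative, 1 past it, Igf2). Oligodendrocyte markers had a median of -0.079 (13 of 13 negative), excitatory neuron markers 0.053 (2 of 14 negative), inhibitory neuron markers -0.035 (10 of 14) and astrocyte markers -0.0086 (9 of 15), with none past the threshold. For microglia, endothelial cells and erythrocytes the medians were -0.0048, 0.024 and 0.060, with 6 of 11, 4 of 10 and 1 of 5 negative. Levels per genotype are not in the table, and the part of these markers in the members' values was not tested.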

How the data were processed

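RNA-seq libraries were made from poly(A) RNA of the cortex of 10 male mice, 5 KI and 5 WT, grouped by sample title. The labels give no litter or batch. Per the submitters' processing notes, the authors used Trimmomatic 0.39, HISAT2 2.1.0, featureCounts 2.0.0 and DESeq2 1.26.0 with build mm10; settings, annotation, strand, filters and the treatment of reads with several origins are unknown here.

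The authors' deposited table gives for each gene a mean normalised count (a signal value), a log2 fold change with its standard error, a Wald score, an unadjusted p-value and an adjusted one, per the file headers. Dividing the log2 fold change by its standard error gave the Wald score for 13661 genes, and the adjusted p equalled a Benjamini-Hochberg adjustment over 13660. Depth per library is unknown; the lowest mean normalised count was 24.4. The design called for a count model only if counts were given, so the deposited test was used, at an adjusted p of 0.05.

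RefSeq (GRCm38.p6) named 13497 gene numbers, all members included. Exon unions, transcript lengths and shared windows came from GENCODE M21 (the transcript with the longest coding sequence for windows). The length trend was a lowess fit over 13265 genes (fraction 0.3, statsmodels 0.14.6, Python 3.11.15). The adjustment was tested on simulated data. The text names all members, gives full statistics for the 4 with the smallest p per direction, and names at most 3 genes of other lists. Lrfn4, Pdk4, Hk3, Slc17a7 and Neurod6 were named after their values were seen. Members and lists were chosen with earlier results of these data known.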

Additional observations from a re-analysis of the deposited data

How the results depend on the processing

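The count of members past the threshold was 0 at adjusted p thresholds of 0.1 and 0.01 and with the adjustment repeated over genes whose mean normalised count reached 200 or 1000; over all genes 6 passed at 0.01, against 10. With the median of all genes subtracted, 32 members were negative and 12 positive, and 3 changed sign. With the length trend removed, 23 were negative and 21 positive, 8 changed sign, and the medians of upper glycolysis, lower glycolysis, lactate dehydrogenase and the citric acid cycle were 0.0021, 0.0043, 0.0027 and 0.0059, each of the opposite sign to the value as reported. All 88 member values under these 2 settings stayed within 1 standard error. With the coding transcript as length, a setting added after seeing the data, Pfkm held 52.9% of phosphofructokinase, Eno2 45.5% of enolase and Sucla2 52.3% of succinate-CoA ligase; with the longest transcript Eno2 also held 45.5%. No paired analysis was possible because the deposited table holds no values per library, and for the same reason no replicate could be left out and no other count model run. The precision rests on the deposited standard errors.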
